A study of Mus musculus with 6 samples.

Results

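The genes described here encode the machinery that moves a cell through its division cycle: cyclins, cyclin-dependent kinases (CDKs), CDK inhibitors, E2F transcription factors, MCM helicase proteins, genes named CDC, and the proliferation markers Mki67, Top2a, Pcna, Plk1, Aurka, Aurkb and Birc5. They were taken by gene name from the array files, with names that begin with Cdc42 left out. This gave 78 genes with 145 probes, of which 74 genes were bright enough to test, among 18854 genes tested in all. With vasoactive intestinal peptide (VIP), 1 of the 74 genes (1.35%, against 3.02% of all genes tested) changed: Cdkn1c, a CDK inhibitor gene, rose 1.16-fold. Its adjusted p of 0.0483 by limma was close to the threshold. The call was lost in 12 of 18 other ways of processing, among them 5 of the 6 fits that left out 1 array. These ways are not independent, since some share the same ratios or arrays. The other 73 did not pass the test. For 70 of the 74 genes (94.6%, against 93.8% of all genes) the 95% interval of the ratio lay within 1.25-fold in either direction.

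Both kinds of cells were resting CD4 T cells from the spleens of C57BL/6J mice, males and females aged 6 to 32 weeks. For each sample 5 to 10 spleens were pooled, red cells were lysed, and CD4 cells were collected with antibody-coated magnetic beads. One kind was treated with VIP and the other was not, on 6 arrays that the labels number as biological replicates, each array carrying 1 treated and 1 untreated sample and labelling started from 250 ng of total RNA. VIP-treated RNA was in the red dye Cy5 on replicates 1, 3 and 5 and in the green dye Cy3 on replicates 2, 4 and 6, and each of 3 slides held both orientations. How much VIP was given, and for how long, is not stated in the labels used here.

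A resting T cell sits outside the division cycle and enters it when the antigen receptor and cytokines raise D-type cyclins. D-type cyclins with Cdk4 and Cdk6, and then cyclin E with Cdk2, phosphorylate the retinoblastoma family of pocket proteins, which releases E2F factors to switch on the genes of DNA replication, the MCM genes among them. CIP/KIP and INK4 inhibitors hold the CDKs back, and Cdkn1b in particular is known for keeping lymphocytes quiescent. VIP is a neuropeptide whose receptors on lymphocytes raise cyclic AMP, a messenger long known to restrain the entry of T cells into the cycle. Transcription factors of the CREB family answer cyclic AMP through a short DNA word, the cyclic AMP response element.

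The probe letters behind the genes with the lowest p-values, and behind E2f6, the gene whose probes differed most, are shown so that each value can be traced to the RNA it read. Each line gives the opening 30 bases of a probe of 60, read 5' to 3', in lower case throughout because no base is singled out. The probes lie in mm9 (NCBI37, coordinates counted from 1) at chr7:150644753-150644812 for Cdkn1c, chr17:29237377-29237436 for Cdkn1a, chr4:155023201-155023260 for Cdk11b and chr16:15624372-15624431 for Mcm4. The E2f6 probes lie at chr12:16833463-16833522 for its RefSeq transcript and at chr12:16828486-16828545 for a cDNA clone. Exon and UTR positions on that build were not used here.
Cdkn1c: cgtagagcagcccacggttttgtggaaatc
Cdkn1a: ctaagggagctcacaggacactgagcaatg
Cdk11b: tccctataacaacctccgcaagagatttgg
Mcm4: tatgtccttactgtgtggagcattgtgtgc
E2f6, RefSeq transcript: ggtaaacctctcctgctttacaaaagattt
E2f6, cDNA clone: aaattgctgtaatcaatatttggtttaaag

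Promoters are shown for 4 genes that between them carry E2F words, CHR words and the cyclic AMP response element: Cdk1, Mcm5, Mcm7 and Cdk11b. They are the 250 bases before the start site in RefSeq on GRCm38.p6, read 5' to 3' on the strand of the gene. The stretches are chr10:69352913-69353162 (minus strand) for Cdk1, chr8:75109259-75109508 (plus) for Mcm5, chr5:138171884-138172133 (minus) for Mcm7 and chr4:155624604-155624853 (plus) for Cdk11b. Capitals mark the E2F words TTTCCCGC, TTTGGCGC, TTTCGCGC and TTTGCCGC, the cell cycle homology region (CHR) words TTTGAA and TTCGAA, and the cyclic AMP response element TGACGTCA with its core TGACGT, each on either strand.
Cdk1: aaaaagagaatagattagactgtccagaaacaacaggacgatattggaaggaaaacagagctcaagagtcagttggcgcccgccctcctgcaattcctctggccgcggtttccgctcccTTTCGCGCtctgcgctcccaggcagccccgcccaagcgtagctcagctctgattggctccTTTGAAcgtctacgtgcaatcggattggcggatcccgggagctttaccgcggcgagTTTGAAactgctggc
Mcm5: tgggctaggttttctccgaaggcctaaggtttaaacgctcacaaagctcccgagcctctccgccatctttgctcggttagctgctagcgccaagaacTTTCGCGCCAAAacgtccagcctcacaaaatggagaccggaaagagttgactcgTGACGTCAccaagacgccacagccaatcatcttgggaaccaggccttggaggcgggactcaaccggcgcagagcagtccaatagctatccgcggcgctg
Mcm7: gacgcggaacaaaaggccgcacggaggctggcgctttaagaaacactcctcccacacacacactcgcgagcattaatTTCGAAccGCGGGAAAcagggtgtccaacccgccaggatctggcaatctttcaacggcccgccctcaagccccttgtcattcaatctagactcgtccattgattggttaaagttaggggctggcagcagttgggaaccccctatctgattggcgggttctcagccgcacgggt
Cdk11b: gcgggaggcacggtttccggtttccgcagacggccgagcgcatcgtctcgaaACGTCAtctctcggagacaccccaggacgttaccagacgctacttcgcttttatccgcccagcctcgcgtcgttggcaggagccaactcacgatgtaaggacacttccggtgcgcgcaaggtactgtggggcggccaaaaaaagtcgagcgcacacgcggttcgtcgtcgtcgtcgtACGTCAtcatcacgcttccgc

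In Cdk1 the E2F word begins at position -131 from the start site and the CHR words at -71 and -15. In Mcm5 a pair of E2F words on opposite strands overlap at -153 and -149, and a full cyclic AMP response element begins at -99, holding the core word on both strands. In Mcm7 a CHR word begins at -173 and an E2F word on the other strand at -165. A further E2F word lies at 16, past the stretch shown. Another RefSeq promoter of Mcm7, not shown, holds none of the marked words. Cdk11b has the core of the cyclic AMP response element on the opposite strand at -198 and -21. A match of letters is a description and not a site of binding.

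Signal set the depth: the median signal of an array was 83.6 to 108 in Cy3 and 148 to 235 in Cy5, in scanner units, and 59.1% to 67.8% of spots in Cy3 and 65.5% to 79.0% in Cy5 were well above background. On replicates 3 and 6 the treated and untreated samples differed in sex-linked RNA, with Xist, the RNA of the inactive X chromosome, at a log2 ratio of -6.15 and 2.05 and the Y-linked Ddx3y at 2.02 and -3.92 before the dye effect was removed. On the other 4 arrays Xist lay between -0.084 and 0.37 and Ddx3y between -0.20 and 0.31. Without these arrays 18 of the 74 cell cycle genes turned in sign, each of them within 0.071 of 0 with all arrays, and their values without replicates 3 and 6 are given with each gene below. Of 45 marker genes of T cells and other spleen cells on the array, 39 were tested and none was called by limma (6 had an unadjusted p under 0.05), with log2 ratios from -0.18 to 0.19. The defining T cell markers Cd3e, Cd3d, Cd3g and Cd4 were well above background on 6 of 6 arrays, as were B cell, macrophage and erythroid markers such as Cd79a, Csf1r and Hba-a1. By kind, the log2 ratios ran from -0.14 to 0.030 for T cell, 0.045 to 0.13 for CD8 T, -0.12 to 0.025 for B cell, -0.18 to -0.032 for plasma cell, -0.025 to 0.19 for macrophage and monocyte, and 0.0083 to 0.16 for neutrophil markers. They ran from -0.042 to 0.082 for dendritic, -0.075 to 0.038 for NK, -0.12 to -0.019 for erythroid, -0.12 to -0.040 for platelet and -0.054 to -0.052 for germinal centre B cell markers. The 6 markers with an unadjusted p under 0.05 were Cd14 (macrophage, 0.19), Jchain (plasma cell, -0.18), Cd3g and Cd3d (T cell, -0.14 and -0.13), Cd8b1 (CD8 T, 0.13) and Itga2b (platelet, -0.12). None of them was called, and 16.5% of all genes tested reached such a p by limma. Of the other T cell markers, Cd3e, Cd4 and Trat1 stood at 0.030, 0.017 and 0.018, and Lck at -0.063. The part of the markers in the results below was not tested. In such bulk samples, fewer cells of a kind and less RNA per cell cannot be told apart.

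RNA of most cell cycle genes was measurable in these samples of resting CD4 cells, which also held RNA of B cell, macrophage and erythroid markers. Which cells the cell cycle RNA came from was not tested. Of the 74 tested, 73 were well above background on 6 of 6 arrays in both treatments, Cdc25c being the exception, and 67 had a value on all 6 arrays. Ccna1, Ccnb3 and Cdc20b, which serve mainly germ cells or are little studied, were not well above background on any array and were not tested. The same held for Cdkn2a, the INK4 gene of senescent cells. The level on each array ran over a range that overlapped between VIP-treated and untreated samples for all 74 genes. This count was not made over all genes, and levels differ between arrays while the ratios are read within each array. The overlap is therefore no result about these genes.

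The cell cycle genes as a list stood close to the middle of all genes. By limma with Benjamini-Hochberg adjustment over the 18854 genes, 1 of 74 (1.35%) was called at an adjusted p under 0.05, where 3.02% of all genes were called, 1.81% higher with VIP and 1.2% lower. Of all genes called, 60.1% were higher with VIP (72.2% with median centring of each array, 75% from the scanner software's processed signals, 76.3% from the deposited table, 70.9% with no dye term and 85.7% in an unpaired fit, and between 52.3%, with the slide as a fixed block, and 65.4% in the other alternatives). An unadjusted p under 0.05 was reached by 12 of the 74 (16.2%), 7 higher and 5 lower, where 16.5% of all genes reached it, 7.99% higher and 8.5% lower. The shares for the list lie near or under those of the background. The median log2 ratio was 0.011 over the list and -0.0017 over all genes, the median size of the ratio 0.044 against 0.049, and the median standard error 0.048 in both. A positive value was fitted for 58.1% of the list and 48.9% of all genes. The same sign on every array, after the dye effect was removed, was seen for 7 genes of the list (9.46%) and for 14.5% of all genes. These 7 were Cdkn1c, Mcm4, Aurka and Mcm2 on the positive side and Mcm7, Cdc123 and Cdk3 on the negative side. The genes whose 95% interval reached past 1.25-fold were Cdkn1c, Cdkn1a, Cdk11b and Cdc14a, each on the side of more RNA with VIP.

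**Figure D1:**
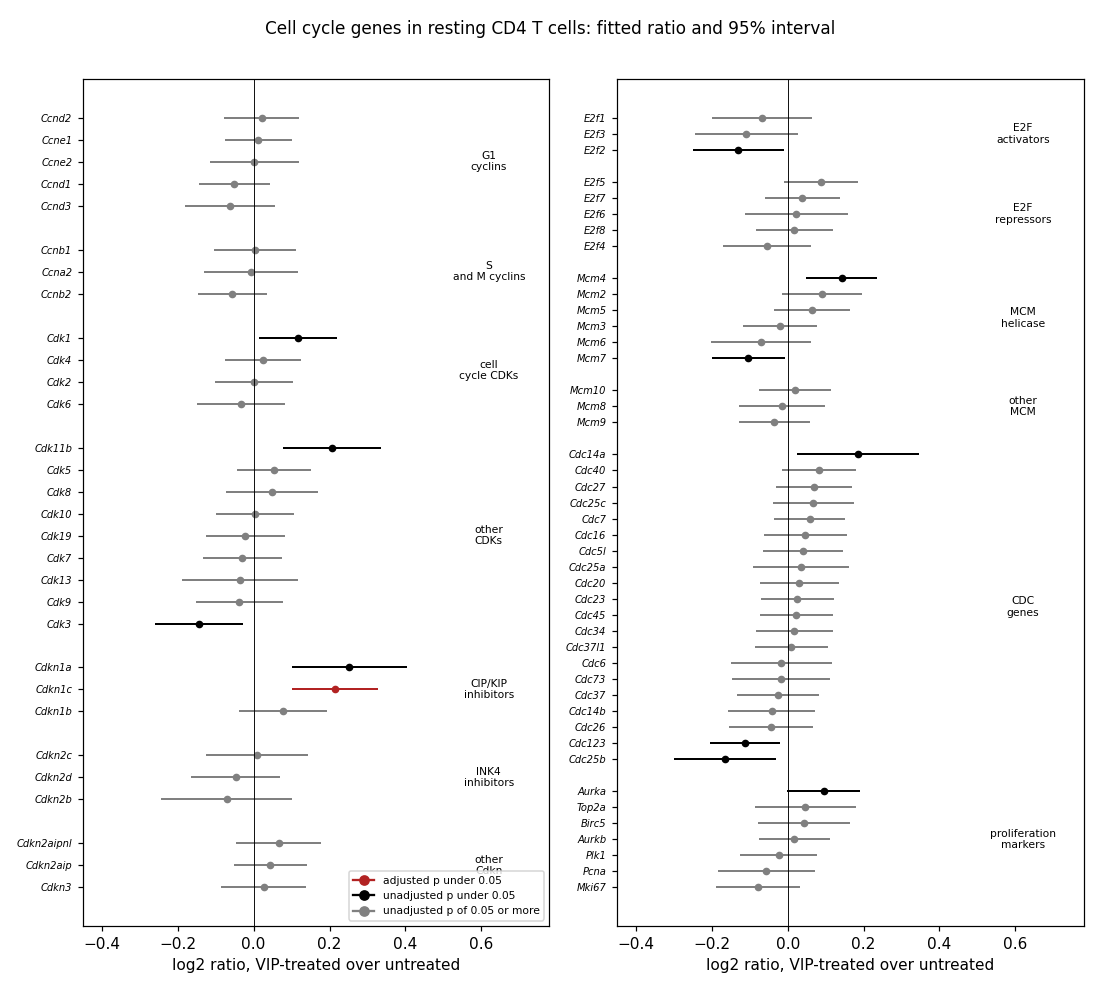
Fitted log2 ratio of VIP-treated over untreated cells for the 74 tested cell cycle genes, ordered by role. Points are the fitted values over 6 arrays (5 for genes with a missing spot) and lines their 95% intervals. Cdkn1c, at 0.21, is the 1 gene with an adjusted p under 0.05, and the other values lie between -0.17 and 0.25.

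**Figure D2:**
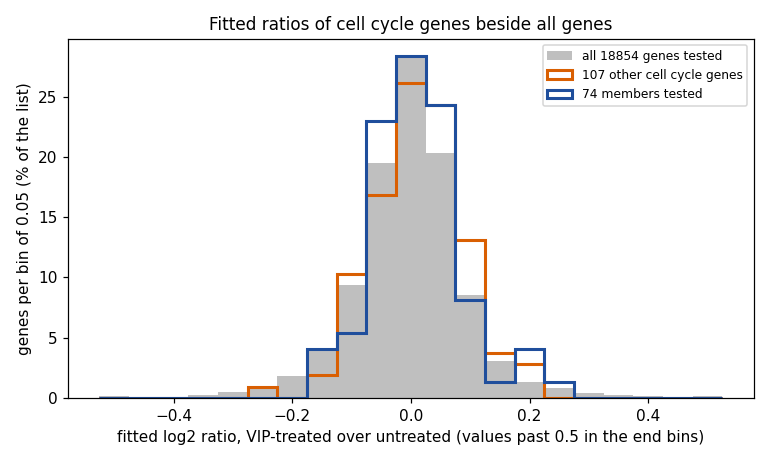
Share of genes (%) in each bin of the fitted log2 ratio, VIP-treated over untreated, for the 74 cell cycle genes, 107 further cell cycle genes and all 18854 genes tested. The 3 outlines centre near 0, with medians of 0.011, 0.012 and -0.0017.

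Of the CIP/KIP inhibitors, which bind and block cyclin-CDK complexes, Cdkn1a and Cdkn1c held the highest values of the list, while Cdkn1b did not. Cdkn1c encodes p57, an imprinted inhibitor also active in stem cell quiescence. Its log2 ratio on replicates 1 to 6, with the dye effect removed, was 0.23, 0.15, 0.079, 0.37, 0.34 and 0.13. Every array was above 0, also before the dye effect was removed, while the levels themselves overlapped, at a log2 intensity of 10.91 to 11.44 (median 11.07) with VIP and 10.66 to 11.17 (median 10.90) without. The fit gave 0.21 ± 0.050 (SE, n = 6 arrays), a 95% interval of 0.10 to 0.33 and an adjusted p = 0.0483 by limma. Within the 3 slides the mean was 0.19, 0.22 and 0.23. The adjusted p lay between 0.0403 and 0.999997 over all other ways of processing, and the call was lost without replicate 1 (0.147), 2 (0.0817), 4 (0.114), 5 (0.187) or 6 (0.0760). It was also lost with the scanner software's processed signals (0.193), the deposited table (0.190), a normexp offset of 10 (0.114), median centring (0.0540), no dye term (0.157), outlier spots kept (0.0781) and the 12 channels unpaired (0.999997), while the log2 ratio stayed between 0.18 and 0.27 throughout.

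Cdkn1a encodes p21, the inhibitor induced by p53 and by growth arrest. Its array values were 0.36, -0.0027, 0.18, 0.18, 0.21 and 0.58. Replicate 6 stood highest and replicate 2 at about 0, and the others lay between 0.18 and 0.36. The log2 intensity was 9.41 to 9.75 (median 9.70) with VIP and 9.17 to 9.53 (median 9.37) without, so the ranges overlapped in part. The fitted ratio was 0.25 ± 0.068 (SE, n = 6), the highest of the list, with an adjusted p = 0.0787 by limma. It passed with the slide as a fixed block (0.0436) and without replicate 2 (0.0463). This probe was printed in 10 spots, which on each array varied by an SD of 0.025 to 0.054, against an SD of 0.22 between arrays. Spots of 1 array share a sample, while arrays do not.

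Cdkn1b encodes p27, the inhibitor known for holding T cells in quiescence. Its array values had a lowest, median and highest of -0.088, 0.062 and 0.26, positive on 5 of 6 arrays. The fitted ratio was 0.077 ± 0.051 (adjusted p = 0.499 by limma), and dimmer probes of the gene gave 0.0086 and 0.15.

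**Figure D3:**
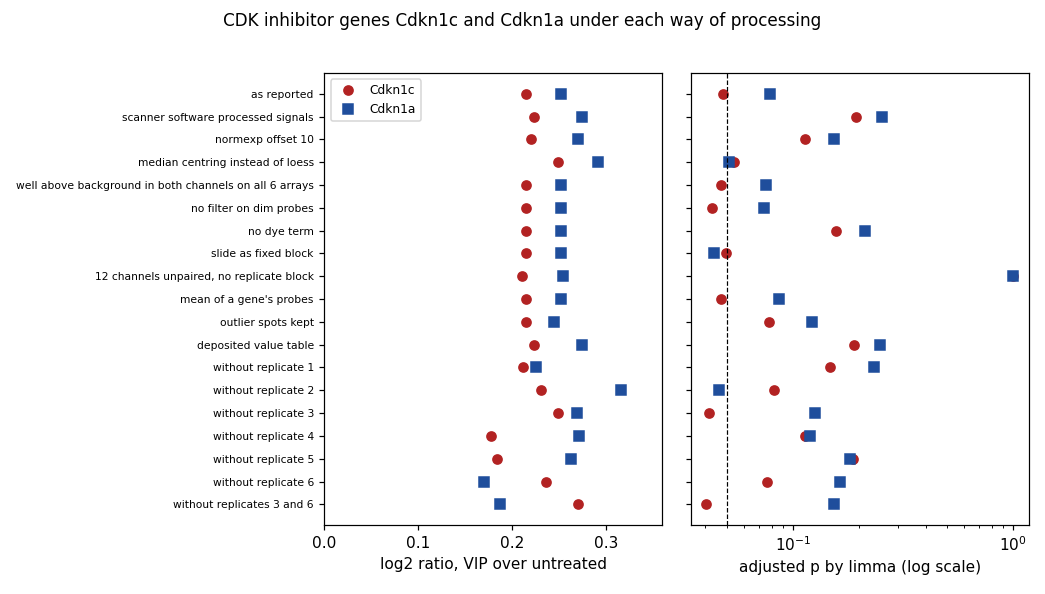
Log2 ratio (left, linear axis) and adjusted p by limma (right, log axis, dashed line at 0.05) of the inhibitor genes Cdkn1c and Cdkn1a under the reported processing and each alternative. The ratio stays above 0.17 in each case, while the adjusted p of Cdkn1c lies on either side of 0.05 from one alternative to another.

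Among the INK4 inhibitors, which bind Cdk4 and Cdk6 alone, 0 of 3 tested genes passed by limma and 0 had an unadjusted p under 0.05. Cdkn2b had array values from -0.49 to 0.17 (median -0.026), with replicate 6 far lowest, and a fitted ratio of -0.071 ± 0.077. Without replicates 3 and 6 its value was 0.029. Cdkn2d, whose dye effect of -0.30 favoured Cy3, stood at -0.047 ± 0.052. Cdkn2c, known in mice for restraining T cell division, stood at 0.0092 ± 0.059, or -0.093 without replicates 3 and 6. The signs of Cdkn2b and Cdkn2c thus depended on those arrays, while Cdkn2d stood at -0.13 without them. Cdkn3, a phosphatase of CDKs, Cdkn2aip, which encodes a binding partner of the tumour suppressor ARF, and Cdkn2aipnl share the name stem without being CDK inhibitors of either family. They gave 0.027, 0.044 and 0.066, none called by limma (0 of 3 with an unadjusted p under 0.05), and Cdkn3 gave -0.037 without replicates 3 and 6.

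The cyclins of G1, which open the cycle, showed no called change by limma (0 of 5, and 0 of 5 with an unadjusted p under 0.05). Ccnd2 and Ccnd3 encode the D-type cyclins most used by lymphocytes. Ccnd3 had array values from -0.18 to 0.15 (median -0.11), negative on 4 of 6 arrays, and a fitted ratio of -0.063 ± 0.053. Ccnd2 ran from -0.096 to 0.12 (median 0.037) and had a fitted ratio of 0.021 ± 0.043. The ratio was -0.073 with the scanner software's processed signals, where the brightest probe was chosen anew. It was 0.0049 with the deposited table, which holds the same ratios but kept the probe choice of the reported fit. A Ccnd2 probe nearly as bright gave -0.066 in the reported processing. Ccnd1, the D-type cyclin of most other tissues, was read at -0.051 ± 0.041 and was lower with VIP on 5 of 6 arrays, its array values running from -0.14 to 0.0057. The cyclin E genes Ccne1 and Ccne2 stood at 0.012 and 0.0018, or -0.00061 and -0.039 without replicates 3 and 6.

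The cyclins of S phase and mitosis were close to 0 as well, with 0 of 3 tested genes called by limma and 0 with an unadjusted p under 0.05. Ccnb2, a mitotic cyclin gene, was lower on 5 of 6 arrays (lowest -0.13, median -0.047, highest 0.0023) with a fitted ratio of -0.056 ± 0.040. Ccna2, the cyclin gene of S phase and G2, gave -0.0079 ± 0.054 on 5 arrays. Ccnb1, the partner of Cdk1 at entry to mitosis, gave 0.0032 ± 0.048, or -0.057 without replicates 3 and 6.

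Of the CDKs that drive the cycle, Cdk1, the kinase of mitosis, had the largest value. Its log2 ratio on replicates 1 to 6 was 0.10, 0.16, 0.19, -0.022, 0.054 and 0.21. It was above 0 on 5 of 6 arrays, replicate 4 being the exception. The fitted ratio was 0.12 ± 0.045 with an unadjusted p of 0.0275 and an adjusted p = 0.228 by limma, so it did not pass. A further Cdk1 probe was too dim to test. Cdk4 (0.026 ± 0.044) and Cdk6 (-0.035 ± 0.051), the partners of D-type cyclins, and Cdk2, the partner of cyclin E, showed 95% intervals that ran from -0.15 to 0.12 at their widest. Cdk2 stood at 0.00094, or -0.012 without replicates 3 and 6.

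The other CDKs act mainly in transcription or outside the cycle. Cdk11b, a kinase of transcription and RNA splicing, had array values of 0.29, -0.058, 0.18, 0.36, 0.15 and 0.32. Replicate 2 alone was below 0. The fitted ratio was 0.21 ± 0.057 with an adjusted p = 0.0882 by limma, and without replicate 2 it was 0.27 with an adjusted p of 0.0203, the lowest over its alternatives, which ran up to 0.999997. Cdk3 pointed the other way. It gave -0.18, -0.092, -0.028, -0.20 and -0.23 on replicates 1 to 5, with no usable spot on replicate 6. All 5 arrays were negative after the dye effect was removed and 4 of 5 before, and the fitted ratio was -0.14 ± 0.051 (adjusted p = 0.186 by limma). Cdk5, best known in neurons, stood at 0.054 ± 0.043. The Mediator kinases Cdk8 and Cdk19, the elongation kinases Cdk9 and Cdk13, the CDK-activating kinase Cdk7, and Cdk10 lay between -0.038 and 0.047. Without replicates 3 and 6, Cdk9 turned from -0.038 to 0.0054, Cdk13 from -0.035 to 0.081 and Cdk10 from 0.0038 to -0.044.

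The activating E2F factors E2f1, E2f2 and E2f3, which switch on replication genes, were fitted below 0, though 0 of 3 passed by limma and 1 had an unadjusted p under 0.05. That gene, E2f2, is known in mice for restraining T cell proliferation. Its array values were -0.29, -0.11, 0.093, -0.19, -0.19 and -0.083, negative on 5 of 6 arrays with replicate 3 above 0. The fitted ratio was -0.13 ± 0.053 (adjusted p = 0.248 by limma). E2f3 had array values from -0.37 to 0.030 (median -0.037) and a fitted ratio of -0.11 ± 0.060, and its other probes reached 0.076. E2f1 ran from -0.31 to 0.12 (median -0.018) with a fitted ratio of -0.068 ± 0.058, and a second probe of it gave 0.046. The sign of these last genes therefore differed between probes of the same gene.

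The repressive E2F factors split in sign, with 0 of 5 called by limma and 0 with an unadjusted p under 0.05. E2f4 and E2f5 work with pocket proteins in resting cells. E2f5 was above 0 on 5 of 6 arrays (lowest -0.021, median 0.098, highest 0.20) with a fitted ratio of 0.088 ± 0.043, and E2f4 had a fitted ratio of -0.054 ± 0.051. E2f7, an atypical repressor that needs no pocket protein, stood at 0.038 ± 0.043, and E2f6 and E2f8 stood at 0.023 and 0.017, E2f8 at -0.00039 without replicates 3 and 6.

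The Mcm2 to Mcm7 proteins form the ring that unwinds DNA at replication forks, 1 copy of each per ring. Their transcripts did not move together: 3 of 6 values were positive and 3 negative, with a median of 0.023 and none called by limma (2 had an unadjusted p under 0.05). Mcm4 had array values of 0.19, 0.22, 0.14, 0.086, 0.097 and 0.12, all above 0, as they were before the dye effect was removed. Its fitted ratio was 0.14 ± 0.041 (adjusted p = 0.0998 by limma), and a second probe, near background, gave 0.043. Mcm7 was the reverse. Its array values were -0.19, -0.17, -0.019, -0.081, -0.10 and -0.056, all below 0 with and without the dye effect, and its fitted ratio was -0.10 ± 0.042 (adjusted p = 0.247 by limma). Mcm2 was positive on all 5 arrays that measured it (lowest 0.039, median 0.080, highest 0.14), with a fitted ratio of 0.091 ± 0.046. Mcm3, Mcm5 and Mcm6 lay between -0.070 and 0.065. Outside the ring, Mcm9 and Mcm8, which act in recombination repair, and Mcm10, which helps origins fire, gave -0.035, -0.015 and 0.019, with 0 of 3 called by limma and 0 with an unadjusted p under 0.05.

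The CDC genes share a naming history and not a function. Of 20 tested, 0 passed by limma and 3 had an unadjusted p under 0.05. Cdc25b, a phosphatase that activates CDKs before mitosis, gave -0.35, -0.079, 0.056, -0.077, -0.20 and -0.34 on replicates 1 to 6. Replicates 1 and 6 stood lowest and replicate 3 was above 0. Its fitted ratio was -0.17 ± 0.060 (adjusted p = 0.187 by limma), and other probes of the gene gave -0.10 and -0.011. Cdc123, a factor of translation initiation, was below 0 on 6 of 6 arrays after the dye effect was removed (lowest -0.18, median -0.12, highest -0.022) and on 5 before. Its fitted ratio was -0.11 ± 0.041 (adjusted p = 0.189 by limma), and a second Cdc123 probe, nearly as bright, gave -0.048. Cdc14a, a phosphatase that opposes CDKs, gave 0.23, 0.51, 0.23, -0.15, 0.098 and 0.20. It was above 0 on 5 of 6 arrays and below 0 on replicate 4, and without that array its ratio went from 0.19 ± 0.072 to 0.27, with the adjusted p by limma going from 0.222 to 0.0427, the lowest over its alternatives, which ran up to 0.999997. A dim second probe of Cdc14a gave 0.0036.

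The other CDC genes lay between -0.043 and 0.081. Among them, Cdc16, Cdc23, Cdc26 and Cdc27 are subunits of the anaphase-promoting complex, Cdc20 is its activator, Cdc6, Cdc7 and Cdc45 act in loading and firing the MCM helicase, and Cdc25a and Cdc25c are the sister phosphatases of Cdc25b. Cdc34 encodes a ubiquitin-conjugating enzyme, Cdc37 and Cdc37l1 an Hsp90 co-chaperone and its relative, Cdc40 and Cdc5l splicing factors, Cdc73 a transcription elongation factor and Cdc14b the sister phosphatase of Cdc14a. Without replicates 3 and 6 the sign turned for Cdc23 (0.026 to -0.010), Cdc34 (0.017 to -0.027), Cdc37 (-0.025 to 0.018), Cdc6 (-0.017 to 0.011) and Cdc73 (-0.019 to 0.027).

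The proliferation markers, whose RNA is abundant in dividing cells, did not move as a group: 4 of 7 were positive and 3 negative, 0 passed by limma and 1 had an unadjusted p under 0.05. Aurka, a kinase of the mitotic spindle pole, was above 0 on 6 of 6 arrays once the dye effect was removed (lowest 0.0080, median 0.086, highest 0.19) and on 4 of 6 before. Its fitted ratio was 0.094 ± 0.042 (adjusted p = 0.300 by limma). Mki67 encodes the Ki-67 protein of cycling cells. Its array values ran from -0.25 to 0.0098 (median -0.035), with replicate 4 lowest, and the fitted ratio was -0.079 ± 0.049 with a 95% interval of -0.19 to 0.029. A second Mki67 probe gave -0.0067. Pcna, the sliding clamp of DNA polymerase, was -0.27 on replicate 3 and -0.19 on replicate 6 and between -0.087 and 0.10 on the others. Its fitted ratio was -0.057 ± 0.057, or 0.029 without replicates 3 and 6. The mitotic kinases Plk1 and Aurkb, the topoisomerase Top2a and the survivin gene Birc5 lay between -0.023 and 0.046, with Birc5 at 0.043, or -0.024 without replicates 3 and 6.

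**Figure D4:**
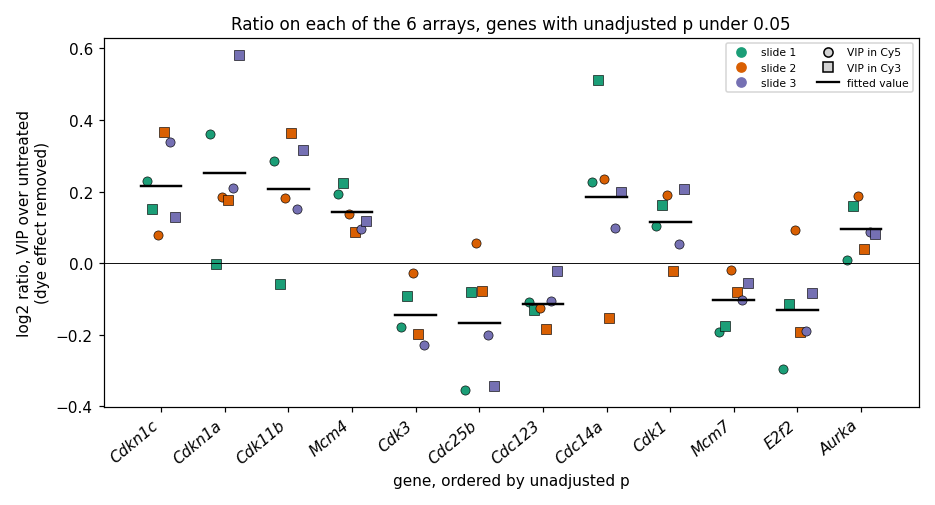
Log2 ratio of VIP-treated over untreated on each array, with the dye effect removed, for the 12 cell cycle genes with an unadjusted p under 0.05. Colours are slides, circles are arrays with VIP in Cy5, squares those with VIP in Cy3, and bars the fitted values. Cdkn1c, Mcm4 and Aurka have all 6 points above 0, Mcm7 and Cdc123 all 6 below, and the largest single value is 0.58 for Cdkn1a on replicate 6.

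Genes of the same pathways that the gene names did not take in were few to change. Of 107 tested (pocket proteins, cyclins and partners, CDK regulators and ubiquitin ligases, licensing and fork factors, DNA synthesis, mitosis, checkpoint and quiescence genes), 2 rose and 0 fell by limma (1.87%, against 3.02% of all genes), and 16 had an unadjusted p under 0.05 (15%, against 16.5%). Both shares lie under those of the background. Kif23, a motor of the midbody in cell division, rose and was higher on 6 of 6 arrays (lowest 0.13, median 0.20, highest 0.32) with a fitted log2 ratio of 0.21 ± 0.042 and an adjusted p = 0.0246 by limma. Prim2, a subunit of the primase that starts new DNA strands, rose and was higher on 6 of 6 arrays (lowest 0.11, median 0.18, highest 0.27) with a ratio of 0.20 ± 0.042 and an adjusted p = 0.0323 by limma. Leaving out any 1 array ended the call of Prim2 (adjusted p of 0.0598 to 0.130), and that of Kif23 ended without replicate 1 (0.0756), 3 (0.0596), 5 (0.113) or 6 (0.0830). Both calls also ended without replicates 3 and 6 together (0.118 for Kif23 and 0.117 for Prim2). Positive values numbered 66 of the 107 (61.7%, against 48.9% of all genes). By list they numbered 11 of 14 for DNA synthesis, 13 of 17 for mitosis, 16 of 21 for licensing and fork factors, 9 of 15 for checkpoint and quiescence, 8 of 14 for CDK phosphorylation and turnover, 5 of 14 for cyclins and partners and 4 of 12 for pocket proteins with their MuvB partners. The differences between lists were not tested. The median over the 107 was 0.012.

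Where a gene had several probes, they often disagreed in sign. Of 40 genes with more than 1 kept probe, 18 had values of both signs. The same count was not made over all genes, so no trait of this list is read from it. The widest gap was in E2f6, at 0.023 for the RefSeq transcript and 0.23 ± 0.052 for the cDNA clone, whose letters are given above. The clone probe was the dimmer, with a mean log2 intensity of 7.78 against 12.29, and when each probe was tested on its own it had an adjusted p = 0.0465 by limma. It was singled out after its values were seen. Cdc40, with probes from -0.11 to 0.081, and E2f3, from -0.11 to 0.076, had the next widest gaps. Choosing 1 probe per gene thus set the sign for a good part of the list.

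E2F words stood in a larger share of the promoters of these genes than of promoters at large, as a description without a test. Of the 78 genes 64 had a RefSeq promoter window of 300 bases (250 before the start site and 50 after), 75 windows in all, and Cdkn1c was among the 14 without one. At least 1 E2F word stood in 13 of the 75 windows (17.3%) and in 2.26% of all 32851 windows. Among the 13 was a window of each of Mcm3, Mcm5, Mcm6, Mcm7, Cdc6, Cdc25a, E2f2 and Cdk1. A CHR word stood in 22 windows (29.3%) against 19.2% of all. The full cyclic AMP response element stood in 4 (5.33%) against 1.79%, and its core, which the full word contains, in 15 (20%) against 7.51%. Neither window of Cdkn1a, nor that of Cdkn1b, held any of these words.

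Genes with and without a word both had median ratios close to 0. The median log2 ratio was -0.016 over 12 tested genes with an E2F word and 0.015 over 48 without. It was 0.0038 over 15 genes with the core of the cyclic AMP response element and 0.012 over 45 without, and 0.020 over 20 genes with a CHR word and 0.0035 over 40 without. With the full element, Mcm5, Cdc5l, Cdc14b and Cdkn2b had a median of -0.0013, with positive values in 2 of the 4. These medians are descriptions and were not tested.

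The dye effect of single genes reached sizes above those of the VIP ratios. The dye effect ran from -0.38 for Cdk7 to 0.30 for Mcm5 in favour of Cy5, larger than the fitted VIP ratio of any of the 74 genes, and the fit carries a dye term for it. On genes measured on all 6 arrays the orientations are balanced, so the term leaves the ratio unchanged. On genes measured on 5 arrays it does not, and with no dye term Cdk3 went from -0.14 to -0.13 and Ccna2 from -0.0079 to 0.016. The median log2 ratio of the 74 genes on each array, with the dye effect removed, lay between -0.012 on replicate 4 and 0.036 on replicate 3. For all genes the same medians lay between -0.010 and 0.012.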

How the data were processed

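Transcripts of VIP-treated and untreated resting splenic CD4 T cells were measured on 6 two-channel Agilent arrays, 1 array per replicate. The members, role groups and further gene lists were chosen with earlier results of these data known. Per the file headers, the deposited spot intensity was read by Agilent Feature Extraction 9.5.1.1, with probe positions on mm9. A table of log10 ratios that the authors deposited matches the scanner's own log10 ratio to within 4.77e-06 once arrays with VIP in Cy3 are turned, so positive values are higher with VIP there and throughout.

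Mean signal less the median local background was corrected by normexp (offset 50) and normalized by loess within arrays, with limma 3.58.1 in R 4.3.3. Controls and outlier spots (1.93% to 8.96% per array) were dropped, and spots of a probe were averaged. Probes were kept if well above background on 3 or more arrays in either treatment and, by a rule carried over from earlier work on these data, measured on 2 or more arrays per dye orientation (27418 of 41174 probes). The brightest probe stood for each gene, giving 18854 genes. Names were updated by RefSeq accession (24844 probes, 60.3%, and 711 more through a shared name), which turned Cdc2a into Cdk1, Cdc2l1 into Cdk11b, Cdc2l5 into Cdk13, Cdc2l6 into Cdk19 and Cdc45l into Cdc45.

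The log2 ratio of VIP over untreated was fitted with limma and a dye term for each gene (4 residual and 6.44 prior degrees of freedom), 2-sided, with Benjamini-Hochberg adjustment over all 18854 genes and calls under 0.05. Both samples of a replicate share an array, so the fit is paired by design. P-values measure the spread between arrays, whose samples the labels call biological replicates. Errors are standard errors, and folds are 2 to the power of the log2 ratio. Array values with the dye effect removed subtract the fitted dye term, which makes the means of both orientations alike for each gene. Genes given with an error or array values are those called, the 3 with the lowest p in each role and all with an unadjusted p under 0.05; of the further lists, those called. Other members are named for completeness, and other genes where the text states that their values were known when they were picked. The fit was tested on simulated data. Alternatives covered background, normalization, filter, dye term, slide, pairing, probe choice, outlier spots, the deposited table and each replicate left out. The unpaired alternative also replaced loess by quantile normalization of single channels. Leaving out replicates 3 and 6, and testing each probe, were added after seeing the data. The number of arrays limits the precision.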

Additional observations from a re-analysis of the deposited data

How the results depend on the processing

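The fit with the 12 channels as unpaired samples and no replicate block had the largest effect. It also used quantile normalization of single channels in place of loess within arrays, so pairing and normalization cannot be told apart there. In that fit 0 cell cycle genes, 7 of all genes and 0 further cell cycle genes were called by limma. An unadjusted p under 0.05 was reached by 1 cell cycle gene. Calls among the 74 cell cycle genes, 1 as reported, also came to 0 with processed signals of the scanner software, the deposited table, a normexp offset of 10, median centring, no dye term and outlier spots kept (8, 9, 9, 5, 9 and 12 with an unadjusted p under 0.05), 2 with the slide as a fixed block (Cdkn1c and Cdkn1a), 2 when each probe was tested on its own, and 0 to 2 when a replicate was left out. Cdkn1c was the gene called with no filter, a stricter filter, the mean of probes, without replicate 3 and without replicates 3 and 6. Calls among all genes, 569 as reported, were 36 with processed signals, 38 with the deposited table, 283 with an offset of 10, 371 with median centring, 117 with no dye term and 227 to 481 with a replicate left out. They were 777 with the slide as a fixed block, 770 with each probe tested, 636 with no filter and between 390 and 576 in the others. Calls among the further cell cycle genes, 2 as reported, numbered 0 with processed signals, the deposited table, an offset of 10, no dye term and without replicates 3 and 6, 1 with median centring, 1 with outlier spots kept, 3 with the mean of probes (Mad2l1 added) and 0 to 2 with a replicate left out, where the 2 without replicate 4 were Kif23 and Cdt1. The median log2 ratio of the cell cycle genes stayed between -0.0011 (without replicate 2) and 0.020.

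Over 41 named genes and 738 comparisons, 666 kept direction and side of the threshold, 36 lost a call, 4 gained one and 32 turned in sign, in 12 genes near 0. Ccnd2 gave -0.073 with processed signals, where its probe was chosen anew (0.0049 with the deposited table), and -0.016 with the mean of its probes. Ccna2 gave 0.016 with median centring, 0.016 with no dye term and 0.0046 unpaired. Median centring gave 0.00012 for Cdk6 and 0.0042 for Mcm8. Processed signals and the deposited table gave -0.0036 for Cdkn2c, the mean of probes -0.0032 for Cdkn2aip, and the unpaired fit 0.16 for Pcna. Without replicates 3 and 6 the values were -0.057 for Ccnb1, 0.029 for Cdkn2b, -0.093 for Cdkn2c, -0.037 for Cdkn3 and 0.029 for Pcna. With 1 replicate left out, values ran from -0.0038 to 0.050 for Ccnd2, -0.045 to 0.024 for Ccna2, -0.029 to 0.036 for Ccnb1, -0.083 to 0.0093 for Cdk6, -0.0035 to 0.046 for Cdk4, -0.13 to 0.033 for Cdkn2b, -0.049 to 0.042 for Cdkn2c, -0.018 to 0.061 for Cdkn3, -0.0021 to 0.044 for Mcm10 and -0.054 to 0.015 for Mcm8. Other than the change of probe for Ccnd2, the cause of these turns was not tested.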

Other observations

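Several cell cycle genes were printed in 10 spots per array, which gives the spread of spots within an array. For Pcna the spots of an array varied by an SD of 0.032 to 0.074 on the log2 scale. For Ccnd1, a dimmer probe, the SD between spots was 0.036 to 0.14. For Cdkn2a, not well above background on any array, the SD between spots was 0.078 to 0.14. A test for a single array standing far from its group was run on 75 series of array values, those of the tested cell cycle genes and of their median, and marked 0 of them.

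Among the genes of licensing, Cdt1, which loads the MCM ring, stood at -0.23 ± 0.059 (adjusted p = 0.0750 by limma), and Gins1, a subunit of the helicase cofactor GINS, at -0.13 ± 0.041 (adjusted p = 0.127 by limma). The sister subunits Gins2 and Gins3 stood at 0.13 and 0.10. The checkpoint gene Mad2l1, which holds anaphase until chromosomes are attached, stood at 0.16 ± 0.042 (adjusted p = 0.0750 by limma). These genes were singled out after their values were seen, and none passed the test as reported. Cdt1 was called without replicate 4 and Mad2l1 with the mean of its probes.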
